A study of Homo sapiens with 12 samples.

Results

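TXNIP and ARRDC4 are a pair of human genes of the alpha-arrestin family, and both were found by symbol in each of the 3 deposited tables, so 2 of the 5308 genes listed in any table are described here, with a value in all 12 libraries. The tables compare long-term cultures of KKU-213A, an established human cholangiocarcinoma line (a cancer of the bile ducts) described as mixed papillary and non-papillary, with untreated cells of the same line, 3 libraries a group. Lactic acidosis cells grew at pH 6.7 in 25 mM L-lactate buffered with 25 mM HEPES, and were brought there by steps that began at 25% of this medium. Acidosis cells grew at pH 6.5 with 25 mM HEPES, lactosis cells at pH 7.4 with 25 mM L-lactate, and every treated culture was kept so for 5 passages or more. The control cells were untreated, and the base of every medium was low-glucose DMEM with serum.

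The labels name HEPES for the 2 acid media alone, so acid cannot be told apart from the buffer. They give passages for the treated cultures alone, so treatment and length of culture cannot be told apart. No label states that a group's libraries are separate cultures, and p-values therefore reflect only library-to-library spread, possibly technical. Of 9 bile duct markers, KRT19, SOX9 and MUC1 were in a table, and KRT19 stood at 2892 ± 258 in lactic acidosis and 3791 ± 869 in control libraries (SD, n = 3 each). SOX9, a duct transcription factor, rose to 34.1 ± 1.44 in lactic acidosis, against 11.97 ± 5.47 in control (SD, n = 3 each; log2 difference 1.53, adjusted p = 0.00183, limma), and MUC1, a surface mucin gene, fell by 1.14 in lactic acidosis and by 0.72 in lactosis. Of 6 hepatocyte markers, SERPINA1 was the one in a table, and it rose by 0.68 in lactic acidosis (adjusted p = 0.00617, limma). The other markers were not analysed here, since each table holds only genes that differed from control.

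TXNIP encodes a protein that binds thioredoxin, restrains glucose uptake and pairs with ubiquitin ligases, and ARRDC4 encodes a related protein that also restrains glucose uptake. Both are textbook targets of MondoA, the product of MLXIP, which with its partner MLX senses phosphorylated sugars and binds paired E-box motifs called carbohydrate response elements. Acid media are known to raise TXNIP through MondoA in other cells.

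The promoters are shown because the paired E-box is the site through which MondoA is known to act. TXNIP lies on chromosome 1 from 145992435 to 145996600 on the minus strand (GENCODE 29, GRCh38), and its longest coding transcript has 8 exons. ARRDC4 lies on chromosome 15 from 97960698 to 97973838 on the plus strand, also with 8 exons. No other annotated gene overlaps either locus, and 0 of 40 windows of 75 bases from either transcript occur in another gene. The sequences below are from RefSeq on GRCh38.p14 and run from 250 bases before the transcription start, 300 bases in all, in the sense of the gene. Capitals mark matches on either strand to the letters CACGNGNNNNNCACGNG (paired E-box), CACGTG (E-box), CCAAT (the CCAAT box) and GTAAACA (a forkhead site).
TXNIP promoter, chr1:145996530-145996829, minus strand: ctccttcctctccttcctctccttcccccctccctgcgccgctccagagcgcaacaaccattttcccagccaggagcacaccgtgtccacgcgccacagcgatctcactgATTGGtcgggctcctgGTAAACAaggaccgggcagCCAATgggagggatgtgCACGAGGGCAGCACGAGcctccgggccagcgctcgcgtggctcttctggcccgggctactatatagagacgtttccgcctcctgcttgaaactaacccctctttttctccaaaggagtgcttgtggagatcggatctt
ARRDC4 promoter, chr15:97960453-97960752, plus strand: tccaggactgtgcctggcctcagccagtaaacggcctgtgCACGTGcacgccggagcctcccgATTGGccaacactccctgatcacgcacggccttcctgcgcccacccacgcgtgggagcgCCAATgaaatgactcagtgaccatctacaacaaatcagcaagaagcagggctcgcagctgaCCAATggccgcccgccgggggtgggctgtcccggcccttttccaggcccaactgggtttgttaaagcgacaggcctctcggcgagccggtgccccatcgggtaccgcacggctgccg

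The TXNIP promoter held 1 paired E-box, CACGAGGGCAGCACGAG, which began 88 bases before the start. Such a match was found in 20 of 35116 promoters of the same length, or 0.0570%. It stood beside 2 CCAAT boxes, at 140 and 105 bases before the start, and 1 forkhead site at 124. The ARRDC4 promoter held 1 E-box, 210 bases before the start, and 3 CCAAT boxes, at 187, 128 and 67 bases before it. An E-box was found in 7.26% of promoters, a CCAAT box in 34.6% and the forkhead letters in 3.42%. No listed motif of one promoter overlapped another, and these matches are letters and not measured binding.

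TXNIP was low in control cells and higher in every treated library, and it was highest in acidosis, the medium without added lactate. Its deposited value, a level per gene length, was 14.73, 15.88 and 15.05 in the lactic acidosis libraries. It was 21.56, 19.96 and 19.64 in acidosis, 12.51, 9.45 and 12.24 in lactosis, and 2.42, 3.76 and 3.97 in control. The 4 groups did not overlap, in the order acidosis, lactic acidosis, lactosis, control.

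ARRDC4 was also higher in every treated library than in any control, but in another order. Its value was 4.29, 4.38 and 3.66 in lactic acidosis, 3.19, 2.90 and 2.43 in acidosis, 2.90, 2.73 and 4.33 in lactosis, and 1.11, 1.12 and 0.91 in control. The highest lactosis library lay within the range of lactic acidosis and the other two within the range of acidosis, while lactic acidosis and acidosis did not overlap. In bulk RNA, more transcript per cell and more cells with the transcript cannot be told apart.

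**Figure D1:**
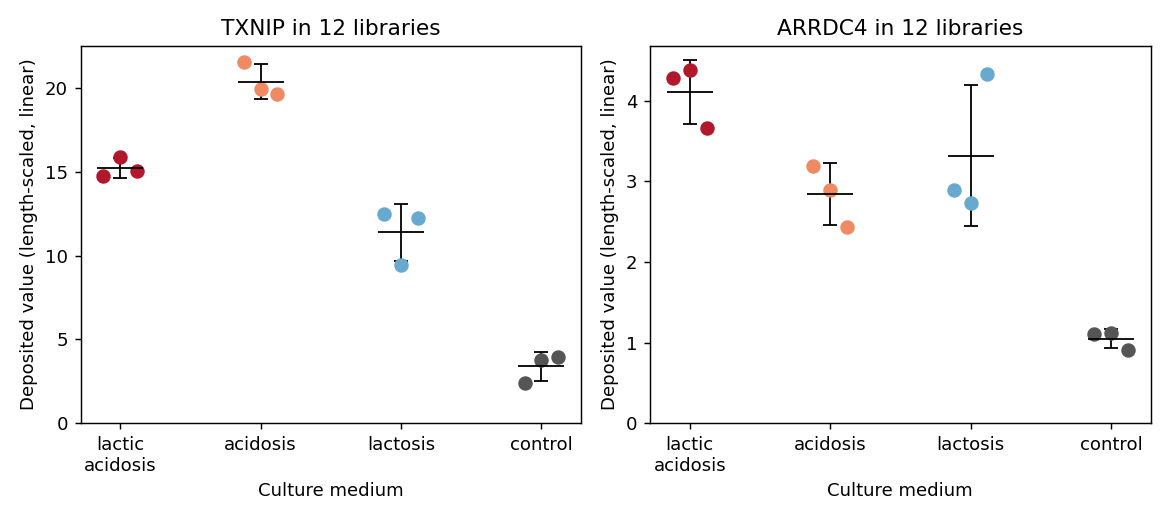
Deposited length-scaled value (linear axis from 0) of TXNIP, left, and ARRDC4, right, in each library of the 4 media; points are libraries, the horizontal line is the mean and the bars are 1 SD (n = 3). TXNIP stands highest in acidosis, between 19.64 and 21.56, and ARRDC4 in lactic acidosis, where 2 of 3 libraries exceed 4.

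Against control, both genes passed as higher in all 3 treatments, as did 38.7% of the 1042 genes listed in all 3 tables. In lactic acidosis TXNIP averaged 15.2 ± 0.594 against 3.38 ± 0.841 in control (SD, n = 3 each), a limma difference of 1.91 ± 0.17 (SE) on the log2(value + 1) scale (adjusted p = 7.17e-05). ARRDC4 averaged 4.11 ± 0.392 against 1.05 ± 0.118, a difference of 1.32 ± 0.13 (adjusted p = 0.000123, limma). Of the 4279 genes listed for this medium, 55.3% passed as higher, and 58.2% had treated libraries that all lay above the controls. The authors listed genes by a test on these same libraries, so a pass alone sets neither gene apart.

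In acidosis TXNIP averaged 20.4 ± 1.03 (SD, n = 3), which was 2.30 ± 0.18 (SE) higher than control on the log2(value + 1) scale (adjusted p = 4.73e-07, limma). This was the highest difference of all 1721 genes in the table. ARRDC4 averaged 2.84 ± 0.384 (SD, n = 3) and was higher by 0.90 ± 0.16 (SE) (adjusted p = 0.00105, limma), which placed it at 68 of 1721. Here 35.9% of listed genes passed as higher and 50.2% had libraries that did not overlap with control.

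In lactosis, with lactate at neutral pH, TXNIP averaged 11.4 ± 1.69 and ARRDC4 3.32 ± 0.879 (SD, n = 3). TXNIP was higher than control by 1.51 ± 0.18 (SE) and ARRDC4 by 1.06 ± 0.17 on the log2(value + 1) scale (adjusted p = 0.000449 and 0.00129, limma). Of the 3087 listed genes 46.5% passed as higher and 52.1% had libraries that did not overlap with control. TXNIP stood at 44 and ARRDC4 at 157 in the order of differences.

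The pseudocount of 1 understates the change of a gene as low as ARRDC4, so the fold changes of the authors' deposited table are set beside it. In the authors' deposited table TXNIP was 4.21-fold higher in lactic acidosis, 6.05-fold in acidosis and 3.33-fold in lactosis. In the authors' deposited table ARRDC4 was 3.55-fold, 2.62-fold and 3.01-fold higher in the same order of media. By fold change in the authors' deposited tables, TXNIP ranked 95 of 2521 genes listed higher in lactic acidosis, 7 of 1051 in acidosis and 52 of 1830 in lactosis. ARRDC4 ranked 111, 26 and 68. In the authors' deposited table for lactic acidosis the size-scaled mean counts were 384 and 90.9 for TXNIP and 144 and 40.3 for ARRDC4, treated and control, so ARRDC4 rests on fewer reads. The 3 comparisons share the same control libraries and are not independent of each other.

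The media were then set against each other, acid against neutral lactate first. TXNIP was higher in both acid media than in lactosis, and a rise of ARRDC4 in acid over neutral lactate did not pass. For TXNIP the acidosis difference over lactosis was 0.79 (95% interval 0.55 to 1.04; adjusted p = 0.00203, limma), and 7.5% of the 1173 genes tested passed as higher. Without overlap, 13.4% of these genes were higher in acidosis. The lactic acidosis difference over lactosis was 0.40 (95% interval 0.16 to 0.63; adjusted p = 0.0244, limma), and 15.7% of 2344 genes passed as higher, with 32.5% higher without overlap. This last call did not hold when any 1 lactic acidosis library was left out, with adjusted p between 0.0546 and 0.0929 (limma). It also did not hold in 1 fit of all 12 libraries over fewer genes, where adjusted p was 0.0973 (limma).

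ARRDC4 differed from lactosis by -0.16 in acidosis (95% interval -0.49 to 0.17; adjusted p = 0.484, limma). In lactic acidosis it differed from lactosis by 0.26 (95% interval -0.03 to 0.55; adjusted p = 0.180, limma). Lactosis replicate 3 decided the second value: without it the difference was 0.42 and passed (adjusted p = 0.00715, limma). Both intervals hold differences on either side of 0.

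With both acid media pooled, 6 libraries against 3 of lactosis, TXNIP was higher by 0.60 on the log2(value + 1) scale. Its exact permutation p of 0.0238, two-sided, is the smallest that 6 against 3 can give, and it is 0.0476 adjusted over the 2 genes. This smallest p arises because all 6 acid libraries lay above all 3 lactosis libraries. The share of all genes that do so was not computed. ARRDC4 differed by 0.05 (exact permutation p = 0.857, two-sided, and 0.857 adjusted). The pooled ARRDC4 value averages differences of 0.26 in lactic acidosis and -0.16 in acidosis, and does not show equal levels.

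Between the acid media the genes went opposite ways. TXNIP was lower in lactic acidosis than in acidosis, with a difference of -0.40 ± 0.07 (SE; adjusted p = 0.00187, limma), while ARRDC4 was higher by 0.41 ± 0.10 (adjusted p = 0.00618, limma). Neither gene overlapped between these media. Of 1304 genes tested 10% passed as lower and 38.7% as higher, and 11.7% and 46.5% did not overlap. The median of all tested genes was 0.16, so the position of TXNIP, 1207 of 1304 from the top, is that of the fewer genes that were lower. The 2 acid media differ in lactate and in pH, 6.7 against 6.5, and these cannot be told apart.

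**Figure D2:**
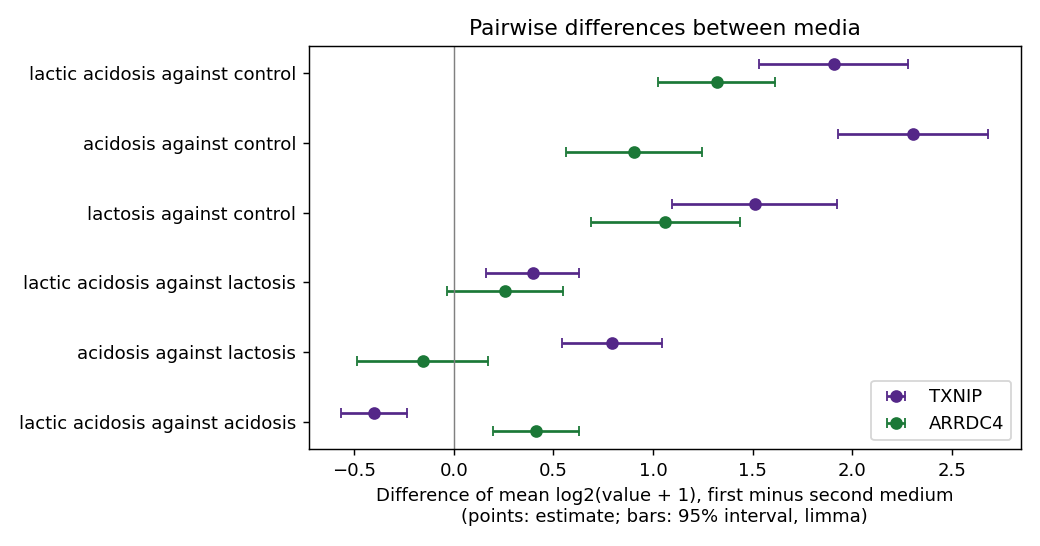
Differences of mean log2(value + 1) between media for TXNIP and ARRDC4, first medium minus second, with 95% intervals from limma (3 libraries a group). The genes lie on opposite sides of 0 in lactic acidosis against acidosis, at -0.40 and 0.41, and the ARRDC4 intervals against lactosis include 0.

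The ratio of TXNIP to ARRDC4 within a library does not depend on how libraries were scaled. It was 3.43, 3.63 and 4.11 in lactic acidosis, 6.76, 6.88 and 8.08 in acidosis, 4.31, 3.46 and 2.83 in lactosis, and 2.18, 3.36 and 4.36 in control. The acidosis libraries all lay above every other library, and the other 3 groups overlapped one another. The mean ratio was 7.24 ± 0.731 in acidosis and 3.30 ± 1.09 in control (SD, n = 3 each). This is a description and was not tested.

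**Figure D3:**
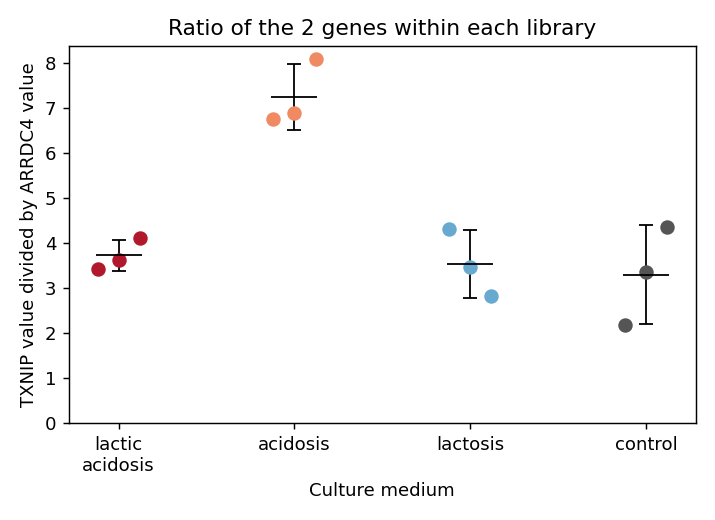
TXNIP value divided by ARRDC4 value in each library (linear axis from 0), by medium, with the mean and 1 SD (n = 3). The 3 acidosis libraries lie between 6.76 and 8.08, and all others at or below 4.36.

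The difference between acid and neutral medium was smaller for both genes where lactate was present. The acid medium with lactate was also less acid than the acid medium without it. A smaller acid difference due to lactate therefore cannot be told apart from that of a milder acid medium. For TXNIP the acid difference was 0.40 with lactate, against 2.30 without it, so the interaction, the first minus the second, was -1.91 ± 0.20 (SE; adjusted p = 9.94e-06, limma over all 12 libraries). For ARRDC4 the acid difference was 0.26 with lactate and 0.90 without it, an interaction of -0.65 ± 0.20 (SE; adjusted p = 0.0205, limma). The fit covered the 1042 genes listed in all tables, of which 15.9% passed with a negative interaction and 20% with a positive one. Of the 403 genes that passed as higher in all 3 treatments, 39.2% passed with a negative interaction and 0.744% with a positive one. A negative sign is therefore common among such genes. Their median interaction was -0.48, and a gene raised alike by all 3 treatments has a negative value by construction. Counted from the lowest interaction of the 1042 genes, TXNIP stood at 4 and ARRDC4 at 104. The ARRDC4 call did not hold with a pseudocount of 5 (-0.24; adjusted p = 0.139, limma), without lactic acidosis replicate 3 (-0.58; adjusted p = 0.0571, limma) or without lactosis replicate 3 (-0.49; adjusted p = 0.0519, limma).

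Among the 1042 genes, 13.2% had 4 groups that did not overlap, in any order. TXNIP was 1 gene of 1042, or 0.096%, with the order acidosis, lactic acidosis, lactosis, control and no overlap. That order was taken from TXNIP itself, which had to match it, so the share is a description and no test. After libraries were rescaled by weights fitted to the authors' group means, 2 genes, or 0.192%, had this order, TXNIP and PPID. By level, the TXNIP mean exceeded 36.3% of the 1042 genes in acidosis and 6.53% in control, and the ARRDC4 mean 11.4% in lactic acidosis and 1.54% in control.

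The genes around the pair were counted against the share of listed genes that passed as lower, which was 30.8% in lactic acidosis, 24.2% in acidosis and 31.2% in lactosis, beside the shares given above for higher. Of the 10 arrestin genes, ARRB2, which encodes a beta-arrestin of receptor desensitization, was the other one listed. It fell in lactic acidosis to 36.3 ± 1.45, against 53.8 ± 3.88 in control (SD, n = 3 each; log2 difference -0.55, adjusted p = 0.00494, limma). In lactosis it averaged 38.2 ± 2.17 (SD, n = 3; log2 difference -0.48, adjusted p = 0.0126, limma), and acidosis does not list it. The ARRB2 call in lactosis was lost without control replicate 2 (-0.42; adjusted p = 0.0542, limma). ARRDC1, ARRDC2 and ARRDC3 were in no table.

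Of 13 genes of the MLX and MYC network, the transcription factors that share the partner MLX or MAX, 8 were in some table and MLX and MLXIPL, which encodes ChREBP, were in none. In lactic acidosis 2 of the 7 listed rose and 4 fell, with a list median of -0.42 against 0.45 over all listed genes. MLXIP, which encodes MondoA, rose to 32.1 ± 0.935 in lactic acidosis, against 23.5 ± 3.15 in control (SD, n = 3 each; log2 difference 0.44, adjusted p = 0.0174, limma). In lactosis MLXIP averaged 27.4 ± 2.41 and did not pass (SD, n = 3; log2 difference 0.22, adjusted p = 0.184, limma). The MLXIP call in lactic acidosis was lost without any 1 lactic acidosis library, with differences from 0.42 to 0.46 and adjusted p from 0.0522 to 0.067 (limma). MYC, a growth factor-responsive activator of the same network, rose in lactic acidosis to 481 ± 25.3, against 292 ± 78.1 in control (SD, n = 3 each).

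The MXD genes encode repressors that compete with MYC for MAX, and MXD4 also pairs with MLX. MXD4 fell to 10.9 ± 0.818 in lactic acidosis, against 23.7 ± 0.431 in control (SD, n = 3 each; log2 difference -1.06), and fell by 0.93 in lactosis. MXI1 fell by 0.72 and MXD3 by 0.42 on the log2 scale in lactic acidosis. MYCL, a MYC relative, fell by 0.93 there. MNT, another MLX partner, fell by 0.67 in lactosis and differed by -0.30 in lactic acidosis without passing (adjusted p = 0.0555, limma). In acidosis MXD1 was the network gene listed, and it fell by 0.67. Calls were lost for MXD3 without lactic acidosis replicate 2 (-0.32) or 3 (-0.43) or control replicate 2 (-0.37), and for MXD1 without acidosis replicate 3 (-0.55) or control replicate 2 (-0.51). MNT passed in lactic acidosis without control replicate 1 (-0.38; adjusted p = 0.00386, limma) and after rescaling (-0.40; adjusted p = 0.00392, limma).

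Genes that bring in and phosphorylate glucose were listed in few cases, 5 of 19. In lactic acidosis 1 rose and 2 fell of 4 listed, with a median of -0.63 against 0.45 over all listed genes. ADPGK, an ADP-dependent glucokinase, rose to 29.5 ± 2.66 in lactic acidosis and to 25.3 ± 2.07 in lactosis, against 18.2 ± 4.82 in control (SD, n = 3 each). The transporter genes SLC2A4 and SLC2A6 fell by 0.90 and 0.81 in lactic acidosis. SLC2A1, which encodes the transporter GLUT1 that TXNIP is known to restrain, averaged 143 ± 8.78 in lactic acidosis and 202 ± 57.3 in control (SD, n = 3 each) and did not pass (adjusted p = 0.0689, limma). SLC2A1 passed without control replicate 1 (-0.70; adjusted p = 0.000136, limma) and after rescaling (-0.56; adjusted p = 0.00341, limma), and differed by -0.28 without control replicate 3. The ADPGK call in lactosis was lost without any 1 lactosis library, without control replicate 2 and without control replicate 1, where the difference was 0.28 against 0.49 with all libraries. SLC2A3, named after its values were seen, was listed in acidosis alone and fell by 0.82. The hexokinase genes HK1 and HK2 were in no table.

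Other textbook targets of MondoA or its relative ChREBP moved in both directions. Of 20 genes 3 rose and 2 fell in lactic acidosis among 5 listed, with a median of 0.41 against 0.45 over all listed genes. KLF10, a zinc finger repressor, rose to 61.7 ± 2.80, against 25.7 ± 12.9 in control (SD, n = 3 each), and PFKFB3, an activator of glycolysis, rose by 0.78 on the log2 scale. SCD, a fatty acid desaturase, was the list member found in all 3 tables. It fell by 1.28 in lactic acidosis, 1.12 in acidosis and 0.57 in lactosis. KHK, named after its values were seen, was listed in acidosis alone and rose by 0.68 (adjusted p = 0.0112, limma). Of the 2 list members in acidosis, 1 thus rose and 1 fell. ACACB, an acetyl-CoA carboxylase, fell by 0.71 in lactic acidosis. Of these 20 genes 14 were in no table and have no value here. Without control replicate 1 KLF10 differed by 0.91 against 1.37 with all libraries, and PFKFB3 by 0.51. The SCD call in lactosis was lost without lactosis replicate 1 (-0.58) or 2 (-0.46) or control replicate 2 (-0.48) or 3 (-0.45).

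**Figure D4:**
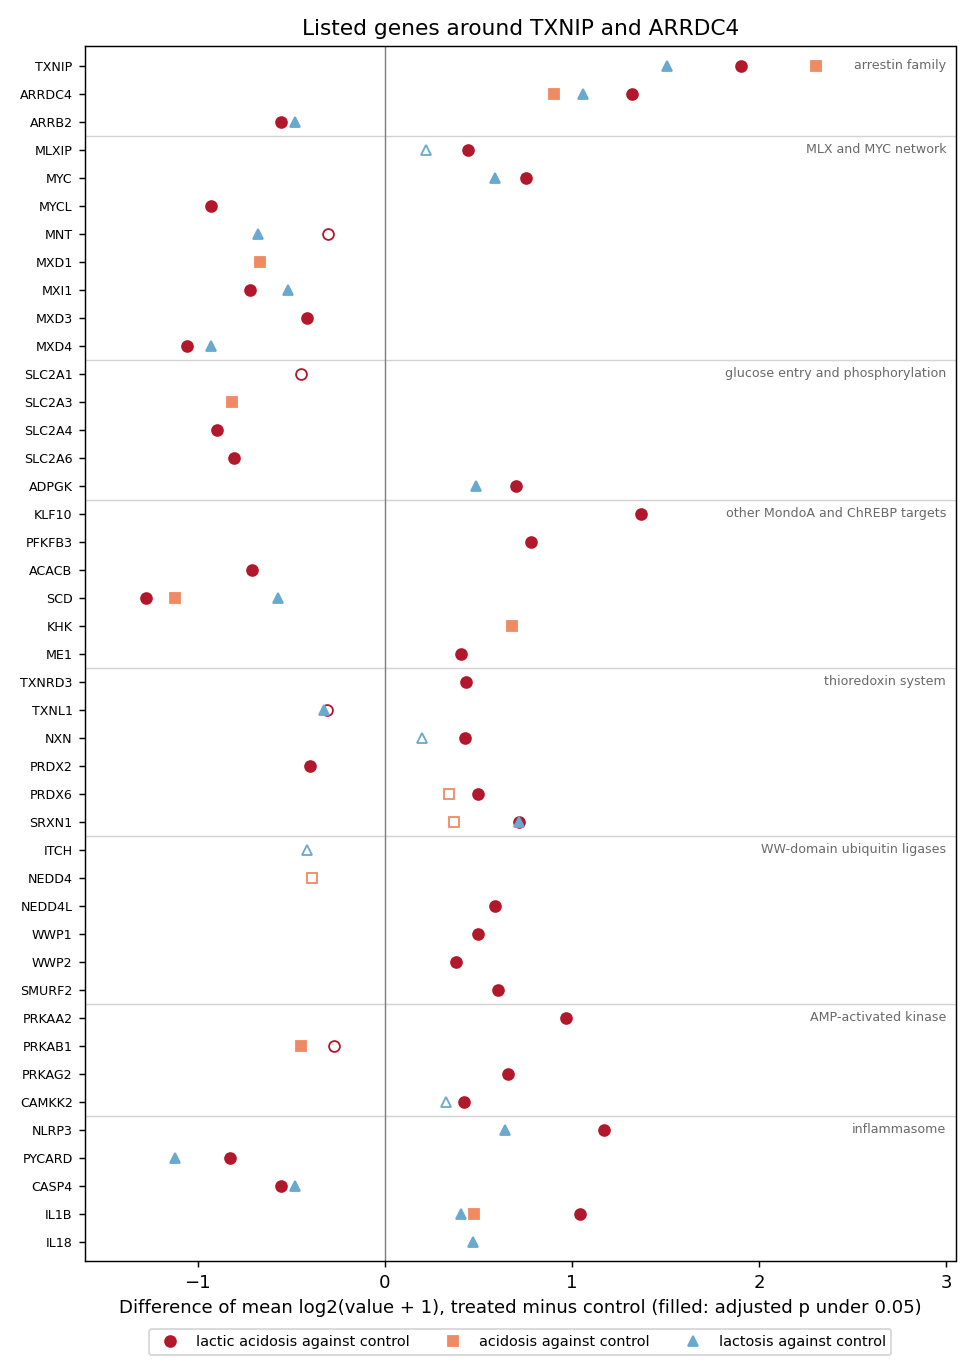
Difference of mean log2(value + 1), treated minus control, for each listed gene of 8 gene lists around TXNIP and ARRDC4 (filled: adjusted p under 0.05 by limma, 3 libraries a group). A missing symbol means that the gene is not in that table. TXNIP and ARRDC4 lie at the right in all 3 treatments, and SCD at the left.

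The thioredoxin system, to which the TXNIP protein binds, had 6 of 17 genes in a table. In lactic acidosis 4 rose and 1 fell, with a median of 0.43 against 0.45 over all listed genes. SRXN1, which restores oxidized peroxiredoxins, rose to 44.1 ± 1.04 in lactic acidosis and 44.1 ± 4.64 in lactosis, against 26.5 ± 2.89 in control (SD, n = 3 each). In acidosis SRXN1 averaged 34.5 ± 2.51 and did not pass (adjusted p = 0.0564, limma). PRDX6, a peroxiredoxin, rose by 0.50 in lactic acidosis, NXN, a thioredoxin relative, by 0.43 and TXNRD3, a thioredoxin reductase, by 0.44, while PRDX2, another peroxiredoxin, fell by 0.40. TXNL1, a thioredoxin-like protein gene, fell by 0.32 in lactosis and differed by -0.31 in lactic acidosis without passing (adjusted p = 0.0524, limma). TXN itself was in no table. The calls of NXN, TXNRD3 and PRDX2 were lost without any 1 lactic acidosis library, with adjusted p from 0.0539 to 0.106 (limma), and those of TXNRD3 and PRDX2 also without control replicate 2, and NXN differed by 0.27 without control replicate 1. Without control replicate 1 SRXN1 passed in acidosis (0.29) and TXNL1 in lactic acidosis (-0.37), SRXN1 also passed without control replicate 3 (0.45), and TXNL1 in lactosis was lost without any 1 library other than control replicate 1, with differences from -0.35 to -0.28.

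Alpha-arrestins recruit WW-domain ubiquitin ligases, and 4 of these 9 genes were listed in lactic acidosis. All 4 rose, NEDD4L by 0.59, WWP1 by 0.50, WWP2 by 0.38 and SMURF2 by 0.61, with a median of 0.54 against 0.45 over all listed genes. The calls of NEDD4L, WWP1 and WWP2 were lost without any 1 lactic acidosis library, with adjusted p from 0.0566 to 0.12 (limma), those of WWP1 and WWP2 also without control replicate 2, and that of SMURF2 without lactic acidosis replicate 2 (0.56; adjusted p = 0.0619, limma). Without control replicate 1 the differences were 0.31 for NEDD4L, 0.30 for WWP1, 0.25 for WWP2 and 0.40 for SMURF2. ITCH and NEDD4 were named after their values were seen. ITCH, whose product is known to mark TXNIP for degradation, was listed in lactosis and did not pass (log2 difference -0.42, adjusted p = 0.0501, limma). NEDD4 was listed in acidosis and did not pass either (adjusted p = 0.0679, limma). Both passed without control replicate 1, ITCH at -0.59 and NEDD4 at -0.51, and after rescaling, and NEDD4 differed by -0.26 without control replicate 2.

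AMP-activated kinase is known to phosphorylate the TXNIP protein and lead to its loss. Of 9 genes of the kinase and its activators, 3 rose in lactic acidosis among 4 listed, with a median of 0.54 against 0.45 over all listed genes. PRKAA2, a catalytic subunit, rose to 10.1 ± 0.545, against 4.83 ± 1.62 in control (SD, n = 3 each), and PRKAG2, a regulatory subunit, rose by 0.66. CAMKK2, an upstream kinase, rose by 0.42. PRKAB1, another regulatory subunit, fell by 0.45 in acidosis and did not pass in lactic acidosis (adjusted p = 0.0846, limma). PRKAB1 passed in lactic acidosis without control replicate 1 (-0.33) and after rescaling (-0.38), and in acidosis its call was lost without any 1 acidosis library or control replicate 2, with adjusted p from 0.0559 to 0.135 (limma). The CAMKK2 call was lost without any 1 lactic acidosis library and with a pseudocount of 0.1 (adjusted p = 0.0636, limma). Without control replicate 1 the CAMKK2 difference was 0.23.

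TXNIP is also known as a binding partner of NLRP3, the sensor of the inflammasome, and 5 of 8 inflammasome genes were in a table. In lactic acidosis 2 rose and 2 fell, with a median of 0.25 against 0.45 over all listed genes. NLRP3 was at 1.5 ± 0.110 in lactic acidosis and 0.747 ± 0.284 in lactosis, against 0.110 ± 0.0520 in control (SD, n = 3 each), and rose in both. IL1B, which encodes a cytokine that inflammasomes mature, rose in all 3 media, by 1.04 in lactic acidosis, 0.48 in acidosis and 0.41 in lactosis. PYCARD, the adaptor of the complex, fell to 5.79 ± 0.862 in lactic acidosis and 4.52 ± 0.242 in lactosis, against 11.1 ± 1.82 in control (SD, n = 3 each). CASP4, an inflammatory caspase, fell by 0.55 and 0.48 in the same media. The IL1B calls were lost without any 1 acidosis library or control replicate 2 in acidosis and without any 1 lactosis library in lactosis, with adjusted p from 0.051 to 0.109 (limma). In lactosis CASP4 was lost without lactosis replicate 1 (-0.51) or 2 (-0.40) or control replicate 2 (-0.41), and NLRP3 with a pseudocount of 5 (0.17; adjusted p = 0.108, limma).

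In lactosis the same 8 lists held few genes each. Of 5 listed genes of the MLX and MYC network 1 rose and 3 fell, with a median of -0.52 against 0.37 over all listed genes, and of 5 inflammasome genes 3 rose and 2 fell, with a median of 0.41. In acidosis, where the list medians rest on 1 or 2 genes, both listed arrestin genes rose, and they are TXNIP and ARRDC4 themselves.

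Each member was compared in pattern with the 1023 other genes in all tables that had a mean value of at least 1, by Pearson correlation of log2(value + 1) over the 12 libraries. The libraries share groups and scaling, so these correlations describe the pattern and carry no test. With clone, antisense and non-coding names left out, the genes most like TXNIP were ANP32A (0.97), PPID (0.96), SNRNP40 (0.94), C14orf119 (0.94) and UBE2T (0.94). Their changes were smaller: UBE2T, a ubiquitin-conjugating enzyme of DNA repair, averaged 113 ± 7.92 in lactic acidosis, 126 ± 11.9 in acidosis, 101 ± 1.91 in lactosis and 66.2 ± 17.0 in control (SD, n = 3 each). PPID, a cyclophilin that works with HSP90, averaged 82.9 ± 1.04, 84.1 ± 2.98, 72.6 ± 4.50 and 52.0 ± 9.14 in the same order.

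With the same names left out, the genes most like ARRDC4 were UAP1 (0.95), RRP36 (0.95), BCCIP (0.94), POLR3G (0.94) and GPR180 (0.94), none of them on the TXNIP list. POLR3G, a subunit of RNA polymerase III, averaged 23.3 ± 2.70 in lactic acidosis, 14.9 ± 1.05 in acidosis, 18.0 ± 1.37 in lactosis and 7.49 ± 1.59 in control (SD, n = 3 each). UAP1, which makes UDP-N-acetylglucosamine, averaged 73.4 ± 5.17, 52.6 ± 3.08, 62.3 ± 2.53 and 40.2 ± 1.65 in the same order. TXNIP and ARRDC4 correlated at 0.83. With no names left out, this placed ARRDC4 at 151 among the genes most like TXNIP, and TXNIP at 361 among those most like ARRDC4.

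**Figure D5:**
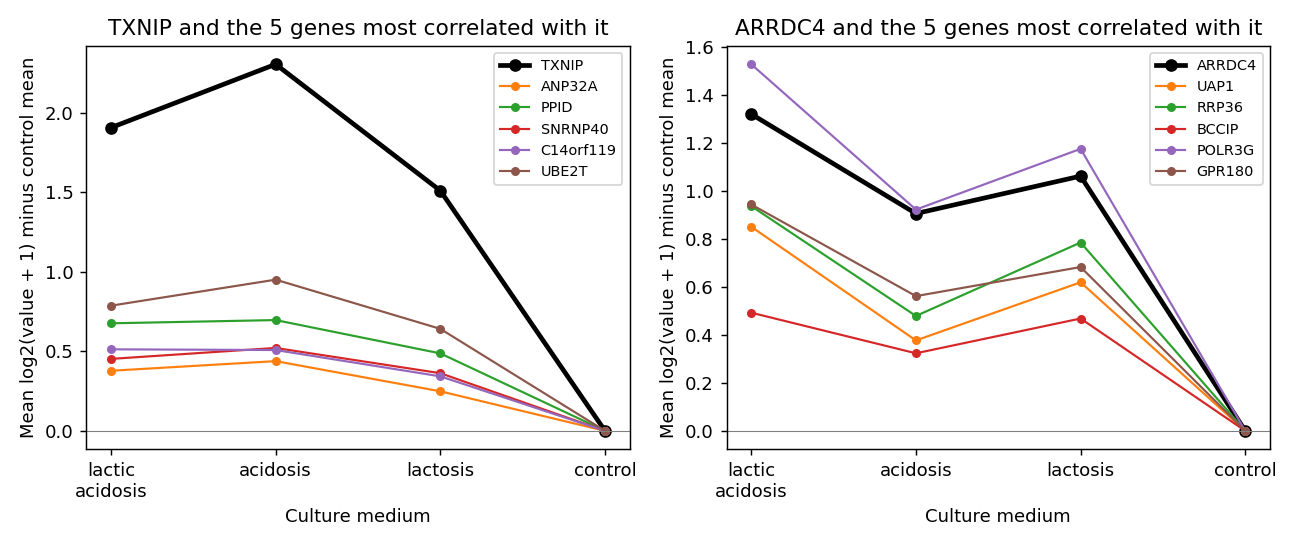
Mean log2(value + 1) minus the control mean in each medium for TXNIP (left, black) and ARRDC4 (right, black) and the 5 genes most correlated with each over 12 libraries. Clone, antisense and non-coding names were left out. TXNIP stands at 2.30 in acidosis, above its neighbours, while POLR3G lies above ARRDC4 in lactic acidosis, at 1.53 against 1.32.

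Some striated muscle genes were high in lactic acidosis replicate 2 and lactosis replicate 2. Over the 7 muscle markers listed in lactosis, the summed value was 0.49, 55.99 and 0.53 in the lactosis libraries and between 0.66 and 1.5 in control. Over the 9 listed in lactic acidosis it was 18.72, 55.45 and 17.00, and between 38.42 and 57.80 in control, where TNNI2, TNNT3 and MB made up most of it. In lactic acidosis replicate 2 the kinase gene CKM reached 4.97 and the myosin gene MYL3 3.86, while no other library of this medium and no control exceeded 0.47 for either. Of 14 markers, 12 were in a table and none in that of acidosis. Without lactic acidosis replicate 2 the TXNIP and ARRDC4 differences from control were 1.88 and 1.28, and without lactosis replicate 2 they were 1.63 and 1.16. The weights fitted to the controls were 1.0, 0.792 and 0.770, so replicate 1 has the lowest deposited values for the same expression. Without replicate 1 of control the TXNIP differences from control were 1.74 in lactic acidosis, 2.14 in acidosis and 1.34 in lactosis.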

How the data were processed

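Polyadenylated RNA of 12 KKU-213A libraries was sequenced as single-end reads of 75 nt, per the labels. STAR and hg38 are named in the submitters' processing notes, and the counting tool is not given in the sources used here. The authors deposited 3 tables of each treatment against the same controls, with EBSeq column names per the file headers. Each deposited library column is a length-corrected signal of unstated kind (TPM or FPKM). The authors' group means are a signal too, counts over size factors. The deposited fold is a ratio of control over treated, turned round here. Listed genes have a deposited posterior probability of equal expression of at most 0.04997. Read depth is unknown. Control values were equal in all tables (largest difference 0), so values were compared across tables.

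Limma 3.58.1 in R 4.3.3 was run on log2(value + 1), unfiltered, with Benjamini-Hochberg adjustment over all genes tested and a threshold of 0.05. A run on simulated independent normal noise checked the code only, since it lacked the selection of listed genes and the scaling differences between libraries. Fits used the 6 libraries compared, with genes of the table or, between treatments, of both tables. The interaction used all 12. Exact permutation tests used scipy 1.17.1. Same-numbered libraries did not deviate together over the 1042 genes in all tables, with correlations from -0.396 to 0.193, so no pairing was used. These genes include no muscle marker. The muscle gene CKM was high in lactic acidosis replicate 2 (4.97) and lactosis replicate 2 (8.29), so the check cannot exclude that numbers pair samples.

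Named genes were all listed arrestin, MLX network and thioredoxin genes, and up to 4 of every other list by adjusted p in lactic acidosis. The 5 genes most correlated with each member, clone, antisense and non-coding names left out, completed this rule. The cell type markers, SLC2A3, KHK, ITCH and NEDD4 were named outside this rule, after their values were seen. Members and lists were chosen with earlier results of these data known. Alternatives were other pseudocounts, a filter on low values, a trended prior, rescaling, 1 fit of all libraries, a replicate block and leaving out each library.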

Additional observations from a re-analysis of the deposited data

Results flagged for a closer look

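Both genes had an acid effect that differed with and without lactate, by a test of the difference itself. Lactic acidosis medium had a higher pH than acidosis medium, so lactate and the strength of the acid cannot be told apart in this test. For TXNIP the effect of acid with lactate minus that without it was -1.91 on the log2 scale (adjusted p = 9.94e-06, limma). For ARRDC4 it was -0.65 (adjusted p = 0.0205, limma), a call that held in 15 of 18 alternatives. Of the 403 genes that passed as higher in all 3 treatments, 39.2% passed with a negative interaction and 0.744% with a positive one. Their median interaction was -0.48. From the lowest of these 403, TXNIP stood at 4 and ARRDC4 at 100. Groups of 3 libraries were not tested for a library that stands apart.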

How the results depend on the processing

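Under other pseudocounts, a filter on low values, a trended prior, rescaled libraries, 1 fit of all libraries, a replicate block and each library left out, 13 alternatives a result, both genes kept their direction and their side of the threshold in each treatment against control and in lactic acidosis against acidosis, as did TXNIP in acidosis against lactosis and, over 18 alternatives, in the interaction. In 1 fit of all 12 libraries, which tests fewer genes, TXNIP in lactic acidosis against lactosis kept its 0.40 but did not pass. Genes called there, of 1042 tested, were 990 for lactic acidosis against control and 1003 for lactosis against control. The main fits called 3684 of 4279 and 2398 of 3087. Between treatments, calls of 1042 were 103 for lactic acidosis against lactosis, 127 for acidosis against lactosis and 335 for lactic acidosis against acidosis. The main fits called 479 of 2344, 280 of 1173 and 636 of 1304. As a share of genes tested, these calls against control rose and those between treatments fell. For acidosis against control 1033 of 1721 genes were called, 1682 after rescaling and 656 with a replicate block, and the cause was not tested. The ARRDC4 interaction was -0.24 with a pseudocount of 5.

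The replicate block was added although same-numbered libraries did not deviate together over the genes in all tables. With it the ARRDC4 interaction stayed at -0.65 (adjusted p = 0.0359, limma) and TXNIP in lactic acidosis against lactosis at 0.40 (adjusted p = 0.0496, limma). No call of the pair changed. Among list genes the block ended the calls of TXNL1 and IL1B in lactosis and of PRKAB1 and IL1B in acidosis, and SLC2A1 passed in lactic acidosis (adjusted p = 0.0254, limma).

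With each library left out in turn, genes called ranged from 1423 (without lactosis replicate 1) to 2589 for lactosis against control, from 425 (without acidosis replicate 2) to 1251 for acidosis against control, from 259 (without lactic acidosis replicate 2) to 663 for lactic acidosis against lactosis, and from 131 (without acidosis replicate 2) to 335 for acidosis against lactosis. TXNIP ranged from 0.28 to 0.46 in lactic acidosis against lactosis, and from 0.48 to 0.66 in both acid media against lactosis, where fewer libraries raise the smallest adjusted p to 0.0714 or 0.143. ARRDC4 ranged from 0.16 to 0.42 in lactic acidosis against lactosis, from -0.25 to 0.0049 in acidosis against lactosis, from -0.74 to -0.49 in the interaction, and from -0.045 to 0.21 in both acid media against lactosis, where the sign turned without lactic acidosis replicate 1 or 2 or lactosis replicate 1 or 2. Alternatives for list genes and correlations were chosen after seeing the data. Of 750 for list genes, 638 kept their side of the threshold, 84 lost a call, 28 gained one and 0 reversed, and the correlations of the 5 genes most like each of the pair stayed between 0.88 and 0.98. Read depth is unknown, and 3 libraries a group limit the precision of a gene as low as ARRDC4.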
